A study of Arabidopsis thaliana with 12 samples.

Results

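Genes for ribosomal proteins were examined in ATAC-seq data from Arabidopsis thaliana roots that were regrowing an excised tip. A gene was a member where its description in the authors' tables for 2.5 h or 14 h held the words ribosomal protein. Descriptions that named a kinase, an acetyltransferase, a methyltransferase or an organelle (plastid, chloroplast or mitochond) were left out, as were genes outside chromosomes 1 to 5. This gave 315 of the 29977 genes that had an accessible region. The set was meant to hold the proteins of the cytosolic ribosome, and the descriptions bore this out only in part. A hand reading of the descriptions and of RefSeq names put 188 members in 70 families of the cytosolic ribosome. These were 81 genes of the small (40S) subunit, 94 of the large (60S) subunit and 13 of the acidic stalk of the large subunit. A further 90 members were of organelle type, that is, families found in the ribosomes of plastids and mitochondria whose descriptions do not name the organelle. The last 37 were elongation factors, proteins with a ribosomal-protein-like domain and genes that could not be placed. The set is therefore called ribosomal protein genes by description, and the 188 genes of the 40S and 60S families are given apart from the other 127.

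The cytosolic ribosome is built from a small subunit, which reads the mRNA, and a large subunit, which joins amino acids. In Arabidopsis nearly every protein of it is encoded by several paralogs, and mutants in single paralogs are known for small or pointed leaves, short roots or embryo arrest. Dividing cells make many ribosomes, and the TOR kinase pathway links their production to nutrients and growth. ATAC-seq measures how readily the transposase Tn5 inserts into DNA, so it reports open chromatin at a gene and not the amount of its mRNA or protein.

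Seedlings were 7 days old after sowing when about 130 µm of the root tip was cut away, and about 200 µm above the wound was collected later. The uncut group consisted of 3 libraries from Col-0 roots, cut to an equivalent segment, with cells stained with DAPI and 50000 nuclei per library. The groups at 2.5 h, 14 h and 16 h after excision had 3 libraries each from MP::MP-GFP plants, which carry the auxin response factor MONOPTEROS (MP) fused to GFP under its own promoter. In these groups GFP-positive cells were sorted, and 1000 nuclei were used per library, or 2000 in 16 h replicate 3. Excision, plant line, sorted cells and number of nuclei all differ between these groups and uncut roots, and their shares in a difference cannot be told apart. The comparisons with uncut roots also share the same 3 uncut libraries. Nothing in the labels ties replicates to separate plates of seedlings, so p-values measure the spread between these libraries, which may be technical. In bulk libraries, fewer cells with an open region and a less open region in each cell cannot be told apart.

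Reads in regions numbered 22.5 M to 31.8 M in uncut libraries, 1.83 M to 4.78 M at 2.5 h, 10.7 M to 17.3 M at 14 h and 1.44 M to 2.35 M at 16 h. Levels are in CPM, read counts divided by library size, so that 3 counts in the shallowest library, 16 h replicate 3, come to 2.09 CPM. Of 12 markers of root and leaf cell types, MP was at 277.3 ± 8.35 CPM at 14 h, against 100.6 ± 3.44 CPM in uncut roots (SD, n = 3 each). MP was the 1 marker that rose, at 14 h and at 16 h. It is the gene that the transgene of the sorted plants carries, and its product was used for the sort. The 4 markers that fell at 14 h were CAB3, CAB2, GL2 and ESB1, and the 3 that fell at 16 h were CAB2, GL2 and ESB1. CAB2 and CAB3 encode light-harvesting proteins of leaf cells, GL2 marks epidermis and ESB1 marks endodermis. The other epidermis marker, MYB66 (WER), had log2 fold changes of 2.22, 1.12 and 0.41 at 2.5 h, 14 h and 16 h. The other endodermis marker, SCR, had -0.32, -0.23 and -0.16 in the same order, and neither was called. None of the 12 passed at 2.5 h in the edgeR test described further on, and none was at 0 in all libraries of a group. Summed levels in uncut roots and at 2.5 h, 14 h and 16 h were 400.8 to 422.1, 494.5 to 679.6, 526.0 to 619.0 and 564.6 to 654.5 CPM for the 4 vascular markers. Of these MP alone was called, and at 14 h WOL, PHB and SHR had log2 fold changes of -0.00, 0.08 and -0.38. The 2 leaf markers summed to 134.0 to 141.9, 39.1 to 165.3, 62.4 to 85.2 and 57.3 to 100.9 CPM, and the 2 endodermis markers to 131.7 to 149.9, 91.4 to 133.8, 78.7 to 108.8 and 60.4 to 110.6 CPM. The 2 epidermis markers summed to 29.96 to 38.8, 7.24 to 47.4, 21.9 to 29.0 and 21.5 to 36.3 CPM, and the 2 root cap markers to 36.8 to 41.1, 34.9 to 48.6, 33.8 to 55.9 and 33.3 to 41.0 CPM. Whether the mix of cell types differed between groups was not tested, nor was its part in the results for ribosomal protein genes.

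Chromatin at the ribosomal protein genes held a nearly constant share of the reads in all 12 libraries. Over the regions common to all groups, the members took 0.863% to 0.940% of reads, and the 40S and 60S families took 0.505% to 0.580%. The lowest share of the 40S and 60S families was in 2.5 h replicate 2 and the highest in 16 h replicate 2. Of the 315 members, 295 had a region in the sets of all groups, and for these a level was set in CPM with library sizes from TMM (trimmed mean of M values) over all 12 libraries. To compare genes with each other, levels were divided by the summed width of their regions. The median was 62.7 CPM per kb over the 295 members and 59.7 CPM per kb over 28341 genes, and 176 of the 295 lay above the median of all genes. By class, the median level was 62.8 CPM per kb for 40S genes, 61.3 for 60S genes, 69.6 for stalk genes, 62.8 for organelle-type genes and 63.2 for the others.

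The single highest level was that of LOS1, which encodes elongation factor eEF2 and is a member only through its description. LOS1 stood at 224.5 CPM per kb, but this rested on 1 region of 14 bp. It was followed by AT5G20160, of the L7Ae/L30e/S12e/Gadd45 family, at 126.0 CPM per kb and AT3G07110, a gene for L13a of the large subunit, at 108.7 CPM per kb. The lowest levels were those of PGY2 (AT1G33140, L9) at 13.1, AT1G36240 (L30) at 14.1 and AT1G41880 (L35a) at 29.8 CPM per kb, all of the large subunit. All 3 fell against uncut roots at 14 h or 16 h, and these means over 12 libraries carry that fall. In uncut roots alone PGY2 was at 48.6, AT1G36240 at 46.7 and AT1G41880 at 54.1 CPM per kb, beside a median of 58.0 over all genes.

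The member regions with the most reads lay inside genes. These levels were not divided by region width, so wide regions rank high. The region with the highest level, chr3:4114519-4115648 (TAIR10, as for all coordinates here), averaged 60.3 CPM over the 12 libraries. It belonged to AT3G12915, a gene of the S5/elongation factor G family. The next, chr3:2953799-2954391, averaged 49.0 CPM, and its distance in the authors' table was 358 bp downstream of the transcription start in exon 1 of AT3G09630, which encodes L4 (RPL4A), a protein of the large subunit. The region chr3:867906-868738 of RPS2 (AT3G03600) followed at 46.2 CPM. It was 0.833 kb wide and stood at 55.5 CPM per kb, below the median of 59.7 over all genes. Over its regions common to all groups AT3G12915 was at 53.3 CPM per kb, also below that median. AT3G09630 was above it, at 79.6 CPM per kb.

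Member regions lay more often near the start or the end of a gene than regions in general, by description and without a test. Within 1 kb of a start lay 56.3% of the 884 member regions, against 46.7% of the regions of all genes. This share was 54.2% in the 40S and 60S families, 50.9% in 60S genes without the stalk and 62.4% in organelle-type genes. Of the regions of 60S genes without the stalk 18.4% were intergenic, against 15.1% for all genes and 8.37% for all members. In the authors' annotation 27.6% of member regions were at a promoter or start, against 21.2% for all genes, and 30.4% were at a transcript end, against 18.1%. Exons held 32.1% of member regions, against 43.4% for all genes. Region width hardly set them apart, with a median of 140 bp in members and 136 bp in all genes.

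Reads stepped up at the start site, in the 40S and 60S genes as in genes in general. In the 250 bp after the start, these genes averaged 3.85, 4.31, 4.07 and 4.40 CPM per gene in uncut roots and at 2.5 h, 14 h and 16 h. In the 250 bp before the start they averaged 0.526, 0.639, 0.527 and 0.458 CPM per gene in the same order of groups. Over all genes the 250 bp after the start held 3.77, 3.61, 3.67 and 3.66 CPM per gene, and the 250 bp before it held 1.03, 0.972, 1.102 and 0.984. The organelle-type genes had the larger step, with 6.49, 7.04, 6.58 and 6.58 CPM per gene after the start and 0.646, 0.639, 0.770 and 0.709 before it. The bin with the most reads was 250 to 500 bp after the start for all genes in each group. For the 40S and 60S genes it was the first bin after the start at 2.5 h, 14 h and 16 h, and in uncut roots the bin from 750 to 1000 bp was level with the first, both at 3.85. These are sums over called regions, with no test. The 40S and 60S genes had 12 called regions in the bin before the start and 73 in the bin after it. All genes had 3211 and 9604. The step thus includes a difference in the number of called regions and is not one in reads per region alone.

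**Figure D1:**
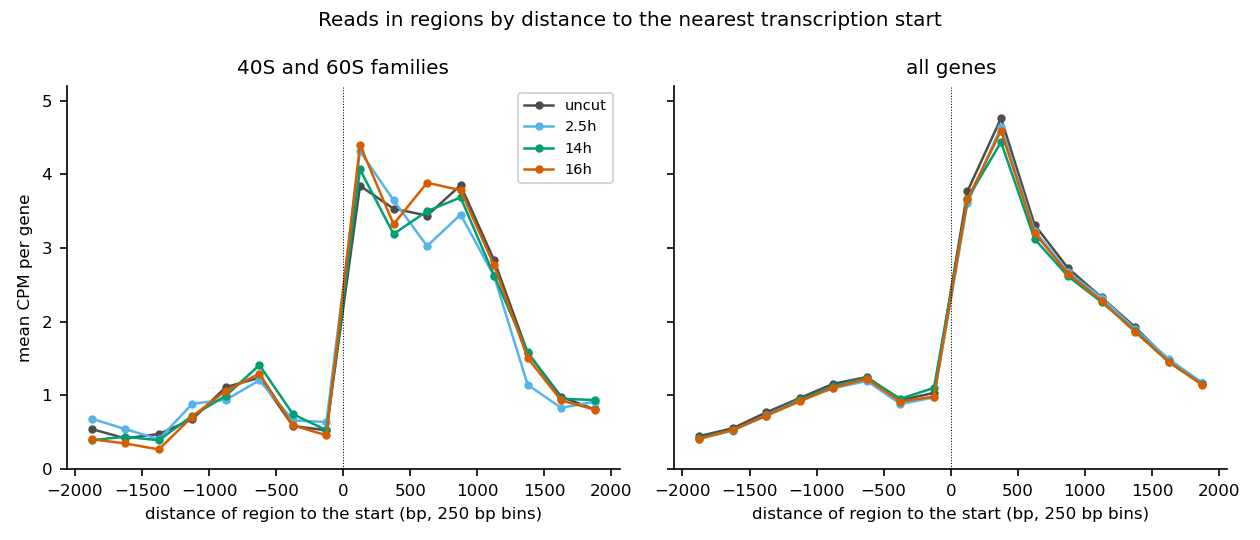
Mean CPM per gene (vertical axis) in regions binned by their distance to the nearest transcription start (horizontal axis, 250 bp bins, negative is upstream), for the 40S and 60S families on the left and all genes on the right, with 1 line per group. In each of the 4 groups the 40S and 60S genes have at most 0.639 CPM in the bin before the start and at least 3.85 CPM in the bin after it, and all genes have at most 1.102 and at least 3.61 CPM there.

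Levels of paralogs that encode the same protein were mostly close together, but so were levels of genes in general. Over 28341 genes the lower and upper quartiles were 52.4 and 67.4 CPM per kb. Whether paralogs were more alike than unrelated genes was not tested. In the 61 families with 2 or more members with a level, the ratio of the highest to the lowest paralog had a median of 1.28 and ran from 1.02 to 6.83. The ratio was above 2 in 5 families. In uncut roots alone the ratio had a median of 1.3, ran from 1.01 to 1.99 and was above 2 in 0 families. The ratios over 12 libraries thus include the groups in which some of these genes had fallen. In the L30 family AT1G77940 was at 96.4 CPM per kb and AT1G36240 at 14.1 over the 12 libraries, and at 61.1 and 46.7 in uncut roots. In the L9 family AT4G10450 was at 72.1 CPM per kb and PGY2 at 13.1 over the 12 libraries, and in uncut roots PGY2 was at 48.6 and AT1G33120 was the lowest at 40.2. In the L35a family AT1G07070 was at 94.9 CPM per kb and AT1G41880 at 29.8 over the 12 libraries, and at 71.96 and 54.1 in uncut roots. The 2 other families were S25, with a ratio of 2.08, and L13a, with 2.07. Paralogs can be close to identical in sequence, and how reads that fit several places were treated is not given in the sources used here, so levels of single paralogs are uncertain.

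**Figure D2:**
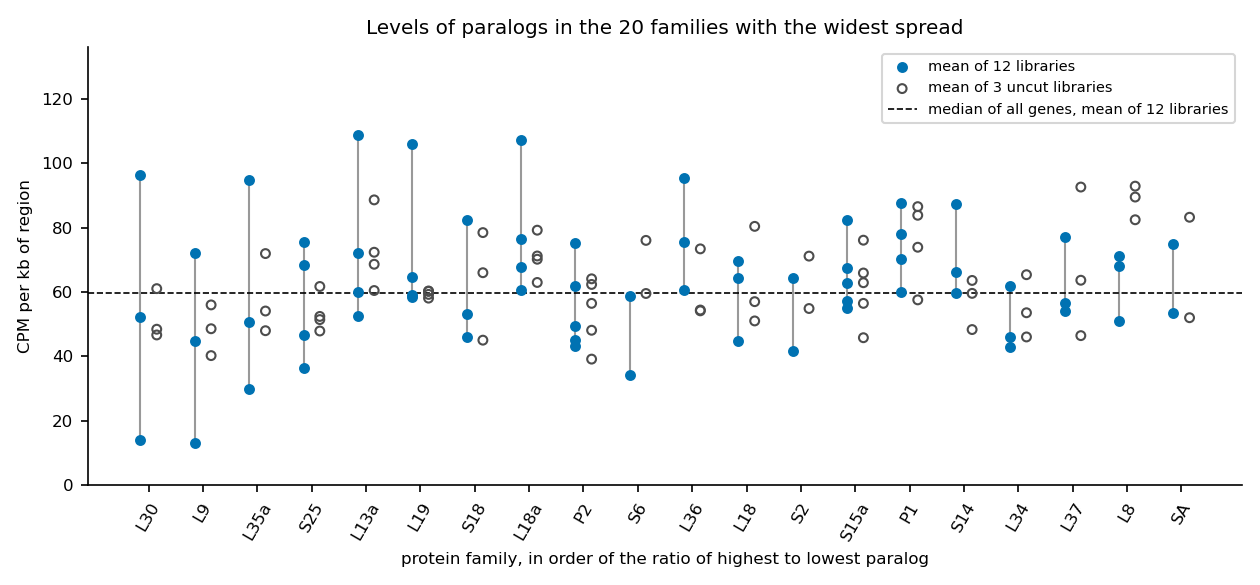
CPM per kb of region (vertical axis) of each paralog in the 20 families with the widest spread, in order of the ratio of the highest to the lowest paralog over 12 libraries, with filled points for the mean of 12 libraries and open points for the mean of 3 uncut libraries. The dashed line is the median of all genes over 12 libraries, 59.7 CPM per kb, and L30, L9 and L35a at the left each have a filled point far below it whose open point is between 46.7 and 54.1.

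Each pair of groups was tested on the summed counts of a gene with edgeR's quasi-likelihood test over all genes, and a call is an adjusted p (Benjamini-Hochberg) under 0.05. CPM values given beside a fold change use the TMM library sizes of those 6 libraries, so that a level in uncut roots differs a little from one comparison to the next. At 2.5 h against uncut roots, no ribosomal protein gene passed. Of the 300 members tested, 0 were called higher and 0 lower, where edgeR called 0.00696% of 28738 genes higher and 0.198% lower. At an unadjusted p under 0.05 there were 29 members, 9.67% of those tested, against 9.94% of all genes. DESeq2 called 11 members higher and 11 lower, and its share of all genes was 3.58% higher and 4.38% lower. The median log2 fold change was 0.01 in members and -0.02 in all genes. Within 2-fold lay 85.7% of the members and 86.6% of all genes. The counts changed when a 2.5 h library was left out: without replicate 1, 2 or 3 of that group, 4 members were called higher each time (1.33%, against 1.32%, 1.58% and 1.66% of all genes), and 16, 15 and 14 were called lower (5.33%, 5% and 4.67%, against 4.80%, 4.79% and 4.58% of all genes). With all 12 libraries in 1 fit 0 members were called higher and 7 lower, against 0.131% and 2.31% of all genes.

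Among the members with the smallest p toward higher values at 2.5 h was AT2G27720, which encodes the stalk protein P2. It had 74.9, 65.1 and 70.9 CPM at 2.5 h, against 41.4, 42.4 and 45.4 CPM in uncut roots. The groups did not overlap, but the log2 fold change of 0.71 ± 0.18 (SE) had an adjusted p of 0.193 in edgeR. RPL12-A (AT3G27830), an organelle-type L12, had 53.1, 42.7 and 49.2 CPM at 2.5 h, against 27.2, 27.4 and 24.9 CPM in uncut roots, a log2 fold change of 0.87 with an edgeR adjusted p of 0.214. AT3G11510, for S14 of the small subunit, had 82.6, 81.9 and 54.5 CPM at 2.5 h, against 40.2, 41.1 and 42.0 CPM in uncut roots. Its log2 fold change was 0.83 with an edgeR adjusted p of 0.242. In each of these 3 genes every 2.5 h library lay above every uncut library. The libraries of these groups did not overlap, in either direction, in 22.3% of members and 24.1% of all genes.

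Toward lower values at 2.5 h, the members with the smallest p had no reads at all at that time. PGY2, AT1G36240 and AT5G46430 (L32) each had 0 CPM in all 3 libraries at 2.5 h, and edgeR gave each an adjusted p of 0.102. In uncut roots PGY2 had 12.2, 13.1 and 12.4 CPM, AT1G36240 had 12.1, 11.8 and 11.5 CPM, and AT5G46430 had 4.84, 4.53 and 5.00 CPM. The 2.5 h libraries were shallow, and a count of 0 allows 3 counts per library, a mean of 1.38 CPM over the 3. On the scale of all 12 libraries, where their uncut means were 13.8, 12.9 and 5.23 CPM, PGY2 was at least 9.96-fold lower than in uncut roots against that floor, AT1G36240 at least 9.33-fold and AT5G46430 at least 3.79-fold. AT5G60670 (L12) and LOS1 were also at 0 at 2.5 h, against uncut means of 4.21 and 2.50 CPM on that scale, at least 3.05-fold and 1.81-fold lower. These 5 are 1.69% of the 295 members with a level, and 1.49% of all genes were at 0 in the 3 libraries at 2.5 h.

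At 14 h against uncut roots, fold changes were small in most ribosomal protein genes, as in most genes. The members that passed fell more often than they rose, as did genes in general. Of the 296 members tested, 7 rose and 18 fell, which is 2.36% and 6.08%. Over all 28483 genes tested, 2.88% were called higher and 7.6% lower, so the members' shares lay near the background. The libraries of the 2 groups did not overlap in 39.5% of members and 36.2% of all genes. The median log2 fold change was 0.02 in members and 0.04 in all genes. Within 2-fold were 96.3% of members and 94.0% of all genes. The split depends on the scaling. With total counts in place of TMM, the median of all genes moved to 0.15 and that of the members to 0.14, and 20 members were called higher and 10 lower, against 6.65% and 6.05% of all genes. DESeq2 called 19 members higher and 29 lower, against 7.18% and 11.0% of all genes. A joint fit of all 12 libraries called 0 members higher and 2 lower, against 0.0176% and 1.65% of all genes, and the 2 were PGY2 and AT1G41880.

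The calls at 14 h were then counted by role. None of 78 small-subunit genes rose and 5 fell, while 3 of 89 large-subunit genes rose and 8 fell. None of the 13 stalk genes was called. Of 84 organelle-type genes 3 rose and 2 fell, and of 32 others 1 rose and 3 fell. The 40S and 60S families together had 3 of 180 higher and 13 lower. Whether the classes differ was not tested.

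**Figure D3:**
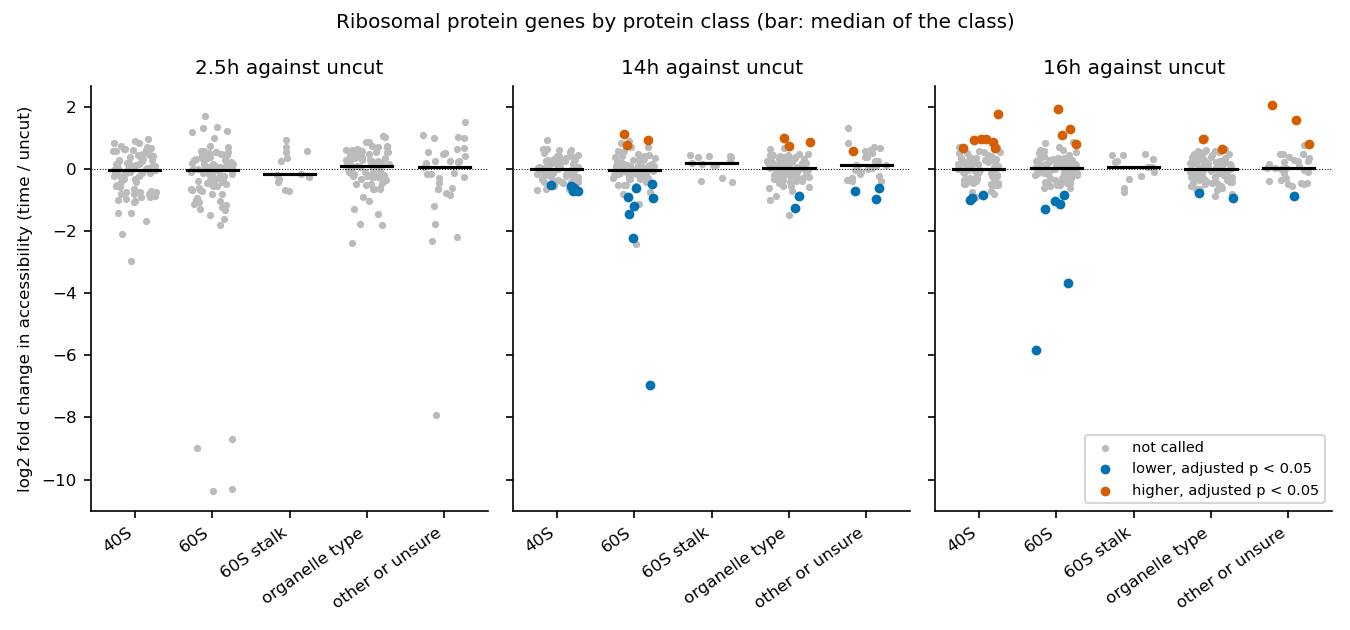
Log2 fold change in accessibility (vertical axis, time over uncut) of each member (point) by protein class (horizontal axis), at 2.5 h, 14 h and 16 h, with orange for higher and blue for lower at an edgeR adjusted p under 0.05 and bars for class medians. Medians sit within 0.2 of 0 in each class, and the points below -8 at 2.5 h are genes with 0 reads there, whose fitted value is no bound.

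The number of calls at 14 h fell without any 1 uncut library and rose without any 1 of the 14 h libraries, in members as in all genes. Leaving out uncut replicate 1, 2 or 3 left 0, 1 and 1 members higher and 4, 4 and 5 lower, that is, at most 0.338% and 1.69%, against up to 0.190% and 3.85% of all genes. Leaving out 14 h replicate 1, 2 or 3 gave 23, 15 and 11 higher (7.77%, 5.07% and 3.72%, against 7.91%, 6.45% and 5.45% of all genes) and 36, 21 and 20 lower (12.2%, 7.09% and 6.76%, against 11.9%, 9.78% and 9.23%). None of the 7 members that rose kept its call in all 6 such fits, and 3 of the 18 that fell did, namely PGY2, AT1G41880 and AT2G20450.

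Of the members that rose at 14 h, AT1G77940 had the smallest p. It encodes L30 of the large subunit, a protein that in yeast also binds its own pre-mRNA. It had 105.0, 84.6 and 58.9 CPM at 14 h, against 37.9, 38.5 and 37.7 CPM in uncut roots. All 14 h libraries were above all uncut libraries, and replicate 3 was the lowest of the 14 h group. The log2 fold change was 1.12 ± 0.20 with an edgeR adjusted p of 0.00842, and without uncut replicate 1 the adjusted p was 0.0561.

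The next 3 that rose were of organelle type. AT5G55140, an L30 of that type, had 26.6, 29.97 and 25.5 CPM at 14 h, against 15.1, 13.1 and 16.2 CPM in uncut roots, a log2 fold change of 0.88 with an edgeR adjusted p of 0.0185. AT1G70190, of the L7/L12 family, had 24.7, 21.3 and 18.8 CPM at 14 h, against 10.5, 10.7 and 11.6 CPM in uncut roots, a log2 fold change of 0.98 with an edgeR adjusted p of 0.0192. PSRP3/2 (AT5G15760), named as a plastid-specific ribosomal protein, had 35.1, 31.9 and 36.04 CPM at 14 h, against 17.2, 23.3 and 20.98 CPM in uncut roots, a log2 fold change of 0.75 with an edgeR adjusted p of 0.0285. No groups overlapped in these 3 genes, and each lost its call without any 1 of the uncut libraries, with adjusted p up to 0.14, 0.131 and 0.174. The other 3 members that rose were AT2G40205 (L41, log2 fold change 0.94), AT5G46430 (L32, 0.77) and AT5G47940 (described as S27, 0.59). AT5G46430 had 17.2, 16.4 and 17.9 CPM at 14 h, against 9.90, 10.1 and 10.3 CPM in uncut roots. This comparison holds regions of the gene that the 2.5 h comparison lacks.

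The largest fall at 14 h was that of PGY2, which encodes L9 of the large subunit and is named after piggyback mutants with altered leaf shape. PGY2 had 0, 0 and 0.226 CPM at 14 h, against 12.7, 13.7 and 12.97 CPM in uncut roots. In reads this was 3 at 14 h and 897 in uncut roots, a ratio per library size of 0.00771 (exact 95% interval 0.00159 to 0.0226, counting error only). The edgeR adjusted p was 0.000266. AT1G33120, another L9 gene looked at after its values were seen, had 13.3, 11.2 and 16.3 CPM at 14 h, against 11.9, 14.3 and 15.6 CPM in uncut roots. Its groups overlapped, and its log2 fold change of -0.03 had an edgeR adjusted p of 0.943.

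AT1G41880, for L35a of the large subunit, also fell at 14 h. It had 159.6, 110.5 and 125.8 CPM at 14 h, against 387.2, 356.6 and 338.0 CPM in uncut roots, a log2 fold change of -1.45 ± 0.15 with an edgeR adjusted p of 0.000517. AT2G20450, for L14, had 31.5, 31.5 and 26.6 CPM at 14 h, against 67.8, 70.5 and 67.5 CPM in uncut roots, a log2 fold change of -1.20 ± 0.13 with an edgeR adjusted p of 0.000589. AT4G36130, for L8, a protein near the catalytic centre of the large subunit, had 22.3, 23.3 and 21.4 CPM at 14 h, against 42.8, 45.3 and 38.7 CPM in uncut roots. Its log2 fold change was -0.92 ± 0.15 with an edgeR adjusted p of 0.00516, and without uncut replicate 1 or 2 it lost its call, with an adjusted p up to 0.0581. In all 3 genes every 14 h library lay below every uncut library.

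Among the remaining falls at 14 h was that of emb2171 (AT3G04400, L23), with 1.48, 1.56 and 1.13 CPM at 14 h, against 7.01, 5.46 and 6.84 CPM in uncut roots, a log2 fold change of -2.22 with an edgeR adjusted p of 0.00723. In the small subunit the genes that fell were AT5G18380 and AT2G09990 (both S16), AT5G58420 (S4), AT5G61170 (S19) and AT5G35530 (S3), with log2 fold changes of -0.72, -0.61, -0.70, -0.53 and -0.53. In the large subunit they also included EMB2296 (AT2G18020, L8) at -0.89, AT3G09630 (L4) at -0.62 and AT4G16720 (L15) at -0.49. Outside the 40S and 60S families they were AT3G12915, AT1G57540, AT3G06180, AT1G29040 and AT4G21460, from -0.62 to -1.25. AT1G36240 had 5.54, 0.719 and 0.829 CPM at 14 h, against 12.6, 12.3 and 12.01 CPM in uncut roots, and its adjusted p in edgeR was 0.0542.

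At 16 h against uncut roots, slightly more members rose than fell. Of 302 tested, 16 rose and 12 fell, 5.3% and 3.97%, where 3.42% of 28948 genes were called higher and 6.09% lower. The share of rises was above and that of falls below the background, and this was not tested. Small-subunit genes rose in 7 and fell in 3 of 80 cases, and large-subunit genes rose in 4 and fell in 6 of 90. None of 13 stalk genes was called, 2 of 86 organelle-type genes rose and 2 fell, and 3 of 33 others rose and 1 fell. The libraries of the 2 groups did not overlap in 34.8% of members and 32.5% of all genes. The median log2 fold change was 0.02 in members and 0.03 in all genes. Within 2-fold lay 96.0% of the members and 93.3% of all genes. DESeq2 called 35 members higher and 21 lower, against 9.22% and 10.3% of all genes. A joint fit of all 12 libraries called 0 members higher and 1 lower, AT1G41880, against 0.0247% and 0.794% of all genes. The lean toward higher calls at 16 h and toward lower calls at 14 h was not tested as a difference.

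Leaving out libraries moved these counts as well. Dropping uncut replicate 1, 2 or 3 left 2, 2 and 3 rises and 4, 4 and 6 falls, that is, at most 1% and 2%, against up to 0.389% and 2.43% of all genes. Dropping 16 h replicate 1, 2 or 3 gave 22, 20 and 26 rises (7.28%, 6.62% and 8.61%, against 5.37%, 6.88% and 6.86% of all genes) with 17, 28 and 21 falls (5.63%, 9.27% and 6.95%, against 7.44%, 9.77% and 8.42%). The last of these leaves out the library made from 2000 nuclei. Of the 16 members that rose, 1 kept its call in all 6 fits, and of the 12 that fell, 4 did.

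The member that rose and kept its call without any 1 library was AT3G53740, for L36 of the large subunit. It had 16.5, 33.9 and 25.8 CPM at 16 h, against 7.26, 6.25 and 6.95 CPM in uncut roots, a log2 fold change of 1.91 ± 0.27 with an edgeR adjusted p of 0.00216. In the joint fit of all 12 libraries its adjusted p was 0.963. The test at 16 h summed 2 regions of this gene, and only 1 of them, used in the joint fit, was in the region set common to all groups. This was chr3:19914698-19914786, 205 bp after its start, which the authors' table annotates to the promoter of the neighbouring gene AT3G53750. Reads there cannot be assigned to one gene or the other.

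AT5G16130, for S7 of the small subunit, had 41.4, 41.4 and 42.6 CPM at 16 h, against 21.1, 20.3 and 22.2 CPM in uncut roots. The libraries within each group were close together, and the log2 fold change was 0.98 ± 0.15 with an edgeR adjusted p of 0.0037, or 0.0538 without uncut replicate 2. AT5G28060, for S24 of the small subunit, had 71.5, 69.1 and 63.5 CPM at 16 h, against 44.1, 40.8 and 42.0 CPM in uncut roots. Its log2 fold change was 0.69 ± 0.14 with an edgeR adjusted p of 0.0129, and up to 0.129 without any 1 uncut library. AT5G19720, described by an L25-like and glutaminyl-tRNA synthetase domain, had 21.3, 12.8 and 16.8 CPM at 16 h, against 3.25, 3.35 and 5.58 CPM in uncut roots. Its log2 fold change was 2.05 ± 0.34 with an edgeR adjusted p of 0.00508, or 0.0598 without uncut replicate 1. All 3 genes had every 16 h library above every uncut library.

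The L30 gene AT1G77940 rose again, with 37.8, 100.3 and 81.7 CPM at 16 h, against 34.2, 34.7 and 33.97 CPM in uncut roots. The 16 h libraries were far apart, the lowest lying just above the uncut libraries, and the log2 fold change of 1.11 ± 0.27 had an edgeR adjusted p of 0.0308. This gene and AT5G47940 were called higher at both 14 h and 16 h, in comparisons that share the uncut libraries. Several paralogs appeared among the other rises. Both AT5G59850 and RPS15A (AT1G07770) for S15a rose, with log2 fold changes of 1.78 and 0.66, as did AT4G39200 and AT4G34555 for S25, with 0.93 and 0.95. A further S25 gene, AT2G16360, fell, with 23.6, 15.8 and 25.8 CPM at 16 h, against 42.9, 41.02 and 44.2 CPM in uncut roots, a log2 fold change of -1.003 with an edgeR adjusted p of 0.0118. The others that rose were AT5G63070 (S15), AT3G14600 (L18a), AT2G47610 (L7a), RPL15, GHS1, LOS1 and AT5G47940, with log2 fold changes between 0.65 and 1.58.

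The falls at 16 h were led by paralogs of L30 and L9. AT1G36240 (L30) had 0.591, 0 and 0 CPM at 16 h, against 11.4, 11.1 and 10.8 CPM in uncut roots. In reads this was 1 at 16 h and 844 in uncut roots, a ratio per library size of 0.0167 (exact 95% interval 0.000421 to 0.0931), with an edgeR adjusted p of 0.000535. PGY2 had 1.18, 1.32 and 0 CPM at 16 h, against 11.5, 12.4 and 11.7 CPM in uncut roots, and its 5 reads at 16 h against 897 in uncut roots gave a ratio of 0.0784 (0.0254 to 0.184) with an edgeR adjusted p of 0.00152. In both genes every 16 h library lay far below every uncut library.

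AT1G41880 (L35a) had 124.1, 139.4 and 138.9 CPM at 16 h, against 349.4, 321.9 and 305.0 CPM in uncut roots, a log2 fold change of -1.28 ± 0.18 with an edgeR adjusted p of 0.00193. AT1G34030, for S18 of the small subunit, had 27.8, 29.03 and 31.4 CPM at 16 h, against 54.2, 57.2 and 55.97 CPM in uncut roots, a log2 fold change of -0.93 ± 0.15 with an edgeR adjusted p of 0.00407. Both kept their call without any 1 library, as did PGY2 and AT1G36240. The other members that fell included AT4G36130 and AT3G51190 (both L8), AT2G20450 (L14), AT5G35530 (S3), AT3G06180, AT3G18240 and AT2G16360, with log2 fold changes from -0.77 to -1.12.

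**Figure D4:**
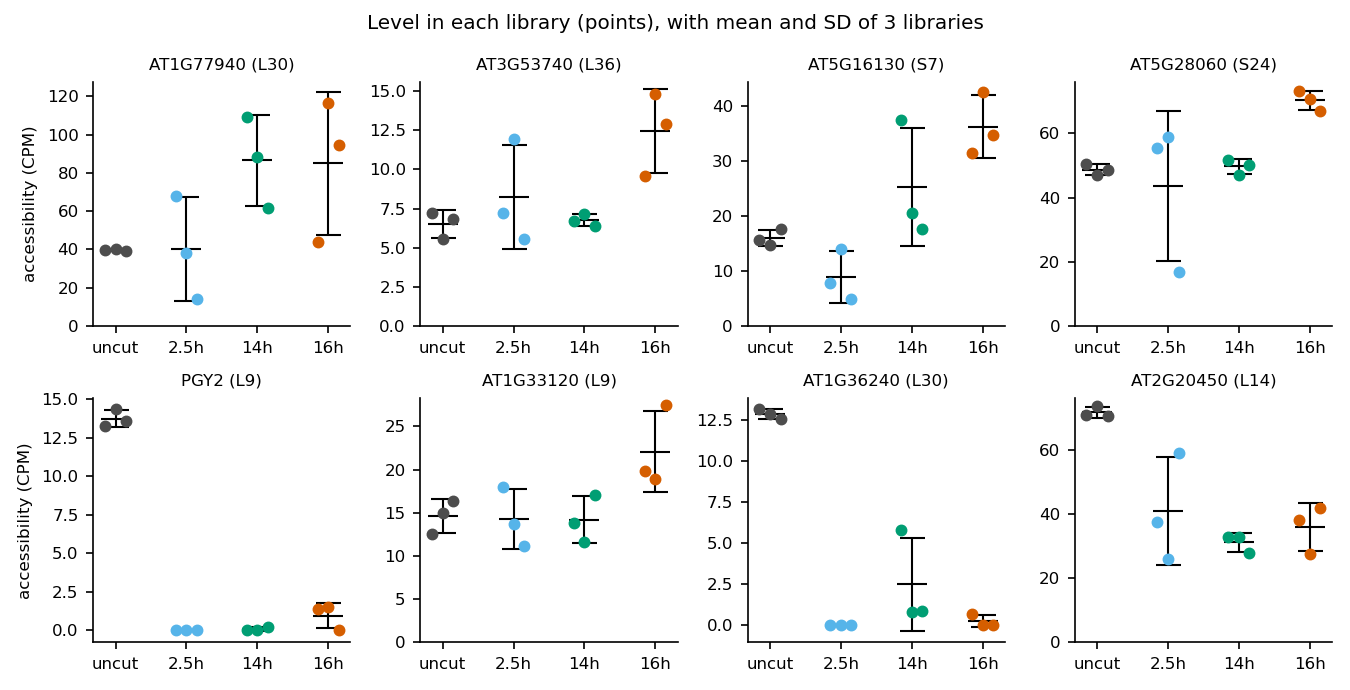
Accessibility in CPM (vertical axis, sized over all 12 libraries) of 8 members in each library (points) of uncut roots and at 2.5 h, 14 h and 16 h, with the mean and SD of 3 libraries. AT1G77940 reaches its highest values at 14 h and 16 h, and PGY2 and AT1G36240 lie below every uncut library at each time after excision. AT1G33120, another L9 gene, overlaps the uncut libraries at 2.5 h and 14 h and lies above them at 16 h.

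The authors' tables give each region to the nearest gene, and several of the largest falls rested on regions far from the gene. Both regions of PGY2 were intergenic, at chr1:12018459-12018589 and chr1:12018863-12019014, 4701 and 4287 bp upstream of the start. The 3 regions of AT1G36240 were intergenic as well, 5442 to 9868 bp downstream of the start, at chr1:13620296-13620369, chr1:13623171-13623280 and chr1:13624713-13624804. The first and second of these had 0 CPM in all 9 libraries after excision and 4.52 ± 0.43 and 4.40 ± 0.49 CPM in uncut roots (SD, n = 3). Of the reads of AT1G41880 in uncut roots, 2.72% lay within 1 kb of the start. AT2G20450 and AT4G36130 had no region within 1 kb at 14 h.

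Restricted to regions within 1 kb of a start, the rises mostly stayed and most falls did not. At 14 h, 5 of the 7 members that rose had the same call there, and 4 of the 18 that fell. At 16 h this held for 11 of the 16 that rose and 3 of the 12 that fell. Among the members that fell, 3 at each time had no region within 1 kb, 16.7% at 14 h and 25% at 16 h. For members that were not called this share was 6.27% at 14 h and 4.74% at 16 h, and for all genes that fell it was 11.8% and 9.59%. The restricted test called 1.12% of genes higher and 4.21% lower at 14 h, and 2.99% higher and 4.79% lower at 16 h. The L14 gene AT2G20450 turned round at 16 h, with a log2 fold change of 3.25 and an edgeR adjusted p of 0.0237 over regions that held 0.698% of its uncut reads.

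**Figure D5:**
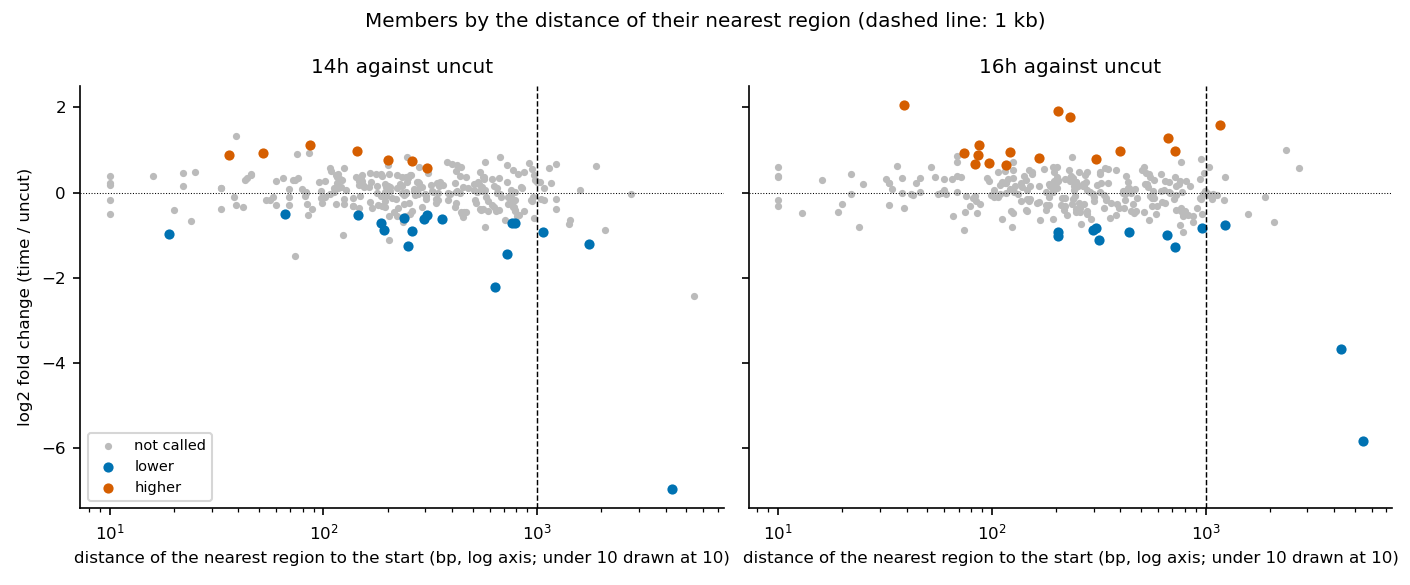
Log2 fold change (vertical axis, time over uncut) of each member by the distance of its nearest region to the start (horizontal axis, bp, log scale, distances under 10 drawn at 10), at 14 h and 16 h, with the dashed line at 1 kb. The largest falls, PGY2 at both times and AT1G36240 at 16 h, lie 4287 bp or more from the start, and among the rises at 14 h and 16 h only LOS1 lies beyond 1 kb, at 16 h.

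The genes around some of these members fell with them. Within 500 kb on either side of AT1G41880, 18 of 29 other genes were called lower at 14 h (62.1%) and 10 of 29 at 16 h (34.5%). Around AT1G36240 28 of 83 genes were called lower at 16 h (33.7%), and around AT2G09990 (S16) 23 of 55 at 14 h (41.8%). Around PGY2 31 of 224 genes were lower at 14 h (13.8%) and 18 of 232 at 16 h (7.76%). Around the L8 gene AT4G36130 the shares were 4.07% at 14 h and 3.69% at 16 h, below the share of all genes. In these 5 windows, which are only some of those counted, the share of falls was highest where the fewest genes lay. Other windows broke this order, as around AT5G35530 (S3), where 9.52% of 105 genes were lower at 14 h. No test was made of this.

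In AT1G34030 (S18) both promoter regions were near 0 at 2.5 h and 14 h. At chr1:12371955-12372033 the mean level was 6.61, 0, 0.341 and 0.952 CPM in uncut roots and at 2.5 h, 14 h and 16 h. At chr1:12372362-12372522 it was 13.5, 0, 0.424 and 3.10 CPM in the same order. The 5 regions in and after the gene kept reads in all groups, and at 16 h, when the gene fell, their means too lay below those in uncut roots, for example at 7.18 CPM at 16 h against 10.7 CPM in uncut roots.

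Members with a described mutant or special role numbered 21 beside the 13 stalk genes. At 14 h 0 of the 21 rose and 2 fell, PGY2 and AT3G09630 (RPL4A), and at 16 h 0 rose and 1 fell, PGY2, where 7.6% and 6.09% of all genes were called lower at these times. At 2.5 h none of them was called by edgeR. AT3G09630 had 49.2, 44.1 and 37.9 CPM at 14 h, against 72.02, 69.8 and 59.4 CPM in uncut roots, a log2 fold change of -0.62 ± 0.15 with an edgeR adjusted p of 0.0293, which was up to 0.17 without any 1 uncut library. At 16 h its log2 fold change was -0.60 with an edgeR adjusted p of 0.0608. Its paralog AT5G02870 (RPL4D) had log2 fold changes of -0.15 at 14 h and -0.37 at 16 h, neither called.

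In the small subunit, the paralog pair for S5 was not called at any time. RPS5A, whose promoter is widely used to drive genes in dividing plant cells, averaged 44.0 ± 2.8, 70.7 ± 28.99, 39.9 ± 9.3 and 51.1 ± 13.2 CPM in uncut roots and at 2.5 h, 14 h and 16 h (SD, n = 3 each, sized over all 12 libraries). RPS5B averaged 34.9 ± 3.0, 33.5 ± 13.6, 38.9 ± 4.9 and 46.0 ± 8.0 CPM in the same order. At 2.5 h and 16 h the spread of RPS5A between libraries was wide.

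RPS6, the phosphorylation target of S6 kinase downstream of TOR, had the largest difference at 2.5 h among the role genes that kept reads. RPS6 (AT4G31700) averaged 24.7 ± 2.6, 3.02 ± 2.43, 15.3 ± 6.8 and 13.5 ± 6.6 CPM in uncut roots and at 2.5 h, 14 h and 16 h. Its log2 fold changes were -2.95 ± 0.71, -0.67 and -0.81, and the edgeR adjusted p was 0.179, 0.203 and 0.11. Its paralog EMB3010 (AT5G10360) averaged 21.8 ± 0.4, 10.4 ± 3.7, 18.8 ± 5.8 and 16.3 ± 7.7 CPM, with log2 fold changes of -1.02, -0.20 and -0.36, none called.

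Of the genes named for leaf shape mutants, PGY2 fell, as given above. PFL (AT1G22780, S18), from pointed first leaf mutants, averaged 54.1 ± 2.5, 70.1 ± 9.1, 55.1 ± 7.7 and 48.0 ± 16.6 CPM in uncut roots and at 2.5 h, 14 h and 16 h. RPS13A (AT4G00100, the second gene found by that phenotype) was at 90.3 CPM per kb, higher than 97.5% of all genes, and averaged 48.7 ± 0.5, 53.7 ± 21.6, 57.4 ± 4.2 and 58.1 ± 7.7 CPM. PGY1 (AT2G27530, L10a) had the largest positive value of the role genes at 14 h, 0.72 ± 0.28 on the log2 scale, with an edgeR adjusted p of 0.139. None of these 3 was called at any time.

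Of the other large-subunit genes of this list, none passed in a comparison with uncut roots. STV1 (AT3G53020, L24), which aids translation past upstream reading frames, had log2 fold changes of -0.68, -0.10 and -0.49 at 2.5 h, 14 h and 16 h. SAC52 (AT1G14320, L10) had 0.52, -0.02 and 0.26, and RPL10B had -0.99, -0.01 and -0.42. ATL5 (AT3G25520, RPL5A) had 0.11, -0.09 and 0.16, and RPL5B had 0.38 at each time. RP1 (AT1G43170, RPL3A) had -1.13, -0.51 and -0.18. RPL23AA had -0.17, -0.80 and -0.14, while RPL23AB had 1.00, 0.06 and 0.20. AT1G70600 (L27a), AT2G34480 (L18a) and AT3G53890 (S21) stayed between -0.56 and 0.47.

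None of the 13 genes for the stalk of the large subunit, through which elongation factors are recruited, was called in any comparison. Over all genes 2.88% were called higher and 7.6% lower at 14 h, and 3.42% and 6.09% at 16 h. At such shares few calls or none would be usual among 13 genes. Of the 13 stalk genes, 6 had a log2 fold change above 0 at 2.5 h, 10 at 14 h and 8 at 16 h. The median of all genes at these times was -0.02, 0.04 and 0.03. The stalk values at 14 h ran from -0.43 to 0.46. The smallest adjusted p of the stalk at 14 h was that of AT5G47700 (P1), which averaged 70.6 ± 5.6 CPM at 14 h and 54.5 ± 0.8 CPM in uncut roots (SD, n = 3 each, sized over all 12 libraries), a log2 fold change of 0.37 with an edgeR adjusted p of 0.0782. AT2G27720 (P2) averaged 47.1 ± 2.2, 75.1 ± 5.5, 64.7 ± 13.1 and 63.5 ± 12.3 CPM in uncut roots and at 2.5 h, 14 h and 16 h. The P0 gene AT3G11250 averaged 42.04 ± 1.7, 60.01 ± 25.6, 47.8 ± 4.2 and 58.0 ± 14.5 CPM in the same order.

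Between the times after excision, which share the plant line and the sort, no member was called. At 14 h against 2.5 h edgeR called 0 of 290 members in either direction, as it did 0.0% of all genes. Its unadjusted p was under 0.05 in 12 members, 4.14%, against 5.18% of all genes. DESeq2 called 1 higher and 1 lower, 0.887% and 0.862% of all genes being called. At 16 h against 2.5 h edgeR called 0 of 287 members and 0.0% of all genes. Its unadjusted p was under 0.05 in 8 members, 2.79%, against 3.87% of all genes. DESeq2 called 1 higher and 0 lower, with 0.249% and 0.0806% of all genes called. At 16 h against 14 h edgeR called 0 of 294 members, with 0.00709% of all genes higher and 0.0% lower. Its unadjusted p was under 0.05 in 6 members, 2.04%, against 4.41% of all genes. DESeq2 called 0 members, with 0.00352% of all genes higher and 0.0% lower.

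The widest difference between times with reads in every library was in AT5G16130 (S7). It had 45.6, 45.7 and 46.9 CPM at 16 h, against 7.47, 13.6 and 4.73 CPM at 2.5 h, a log2 fold change of 2.40 ± 0.55 with an edgeR adjusted p of 0.999. The other S7 gene AT1G48830 had 37.8, 53.0 and 30.7 CPM at 16 h, against 7.97, 20.6 and 12.8 CPM at 2.5 h, a log2 fold change of 1.56 with an edgeR adjusted p of 0.999. RPSAb had a log2 fold change of 0.89 in this comparison. Both S7 genes had every 16 h library above every 2.5 h library. These groups did not overlap, in either direction, in 12.5% of members and 12.6% of all genes. In the other direction RPL12-A had 15.6, 23.3 and 19.97 CPM at 16 h, against 55.3, 44.0 and 50.6 CPM at 2.5 h, a log2 fold change of -1.34 with an edgeR adjusted p of 0.999. AT3G60245 (L37a) and AT3G12915 had log2 fold changes of -0.98 and -0.75.

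At 14 h against 2.5 h AT5G60670 (L12) had 17.9, 6.37 and 5.47 CPM at 14 h, against 0 CPM in all 3 libraries at 2.5 h, and its edgeR adjusted p was 0.805. AT5G47930 (S27) had 48.0, 48.0 and 48.3 CPM at 14 h, against 13.9, 34.6 and 20.5 CPM at 2.5 h, a log2 fold change of 1.07, and RPS15 (AT1G04270) had a log2 fold change of 1.69. Of the lower values, AT3G12915 had 71.9, 85.2 and 86.0 CPM at 14 h, against 128.7, 160.9 and 146.8 CPM at 2.5 h, a log2 fold change of -0.84 with an edgeR adjusted p of 0.805. AT3G11510 (S14) and AT2G37190 (L12) had log2 fold changes of -1.002 and -1.05. The groups did not overlap in any of these 6 genes, and none passed the adjustment. The 6 were named for having the smallest p in each direction. Of the 290 members tested, 14.5% had no overlap between these groups, 26 toward higher and 16 toward lower values. Of all 28009 genes tested, 2650 had no overlap toward higher and 1553 toward lower values.

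At 16 h against 14 h emb2171 (L23) had 4.08, 6.05 and 8.80 CPM at 16 h, against 1.52, 1.61 and 1.17 CPM at 14 h, a log2 fold change of 2.12 with an edgeR adjusted p of 1. AT4G13170 (L13a) and AT5G09490 (S15) had log2 fold changes of 1.38 and 1.05. PSRP3/2 had 22.4, 10.1 and 18.4 CPM at 16 h, against 36.2, 32.96 and 37.3 CPM at 14 h, a log2 fold change of -1.08. AT5G02440 and AT2G01250 (L7) had log2 fold changes of -1.34 and -0.57. None of these passed the adjustment.

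Further lists of genes of protein synthesis are set against the same background. This was 2.88% of all genes higher and 7.6% lower at 14 h, and 3.42% higher and 6.09% lower at 16 h. The list of translation factors overlaps the members. Genes described as EF1B/ribosomal protein S6 family, such as AT1G30230 and AT3G17170, are in both. Of 7 genes tested for mitochondrial ribosomal proteins, 0 rose and 2 fell at 14 h, AT4G09012 at -2.97 and MRPL11 at -0.94 on the log2 scale, and AT4G09012 fell again at 16 h. None of 4 plastid ribosomal protein genes and none of 11 genes of TOR signalling was called at any time. Of 72 translation factors, 3 rose and 6 fell at 14 h, and of 74, 1 rose and 5 fell at 16 h. The rises at 14 h were in ELF5A-3 (0.93), LSP1 (0.78) and AT1G76810 (0.52). Of 34 genes of ribosome biogenesis, 2 rose and 1 fell at each of 14 h and 16 h. EDA25 (AT1G72440), needed for processing of ribosomal RNA, rose at both times, with log2 fold changes of 0.63 and 0.65, and SWA1, with a like role, fell at both, with -0.91 and -0.71. None of the genes of these 5 lists was called in the edgeR test at 2.5 h against uncut roots or between times.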

How the data were processed

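ATAC-seq was measured in 12 libraries, 3 in each of 4 groups taken from the sample labels. The authors deposited raw read counts per accessible region, 1 file per library. The submitters' processing notes name the build TAIR10 and the tools Bowtie2, SAMtools, MACS2, HOMER and DESeq2, without versions. How reads were counted, and what was done with duplicates and with reads that match several places, is not given in the sources used here. Of the 2 deposited comparison tables, only gene, description, distance and annotation were used, and 12 columns of values per sample were not, nor was the 16 h table.

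Of 156035 distinct regions, 137855 took their gene from the tables, 8018 from an overlapping region, 6750 from one within 500 bp, and 3412 had none. The sets held 107842 regions for uncut roots and 16 h, 116892 for 2.5 h and 136932 for 14 h, and each comparison used regions with identical coordinates in both groups. Counts were summed per gene and all genes were fitted with edgeR 4.0.16 in R 4.3.3 (TMM, filterByExpr, quasi-likelihood F test, Benjamini-Hochberg, threshold 0.05). Of the 315 members, 287 to 302 passed the filter on low counts, depending on the comparison. Members that passed only through the group where they were high had to differ, so counts over those that passed are descriptions. The script was tested on simulated data. Intervals and the floor of 3 counts cover counting error only.

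Named members are the 4 with the smallest p that rose and the 4 that fell past the threshold. Where none passed, they are the 3 with the smallest p in each direction. Also named are members of known role and the 3 with the highest and 3 with the lowest level per kb. The 3 regions with the highest CPM, not divided by width, are named too. Others complete a count. The values of 1 member are not reported here. The members and lists were chosen with earlier results of these data known. Alternatives were DESeq2 1.42.0, its size factors, total counts, no filter, a replicate block, a joint fit of the 12 libraries, leaving out each library, regions within 1 kb of a start, members whose descriptions name 40S or 60S and, added after seeing the data, the 40S and 60S families only. No sequences were used here.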

Additional observations from a re-analysis of the deposited data

How the results depend on the processing

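Counts of called members moved with several choices. DESeq2 called 11 up with 11 down at 2.5 h, 19 up with 29 down at 14 h, 35 up with 21 down at 16 h against uncut roots, 1 each way at 14 h against 2.5 h, and 1 higher at 16 h against 2.5 h. With all 12 libraries in the fit there were 7 lower at 2.5 h, 0 with 2 lower at 14 h, 0 with 1 lower at 16 h, 1 higher at 14 h against 2.5 h and 2 higher at 16 h against 2.5 h. Total counts gave 20 higher and 10 lower at 14 h. Regions within 1 kb of a start gave 5 lower at 14 h and 4 lower at 16 h. Members whose descriptions name 40S or 60S, 21 in all, gave 1 each way at 14 h and at 16 h, and the 40S and 60S families, chosen after seeing the data, gave 3 higher at 14 h; both have fewer members by construction. The cause of the other shifts was not tested. Leaving out 1 library gave 0 to 4 higher with 0 to 16 lower at 2.5 h, 0 to 23 higher with 4 to 36 lower at 14 h, 2 to 26 higher with 4 to 28 lower at 16 h, and 0 between times. The replicate numbers share only a number, with correlations of deviations between -0.062 and 0.010, and 2 of 18 same-numbered pairs correlated better than the other pairings. With the replicate block 3 members were higher at 14 h and 9 at 16 h. Shares of all genes are not given here for the block or for the joint fit between times. Those counts therefore cannot be set against a background. Of the 53 calls on single members, DESeq2, its size factors and no filter kept 53, total counts 45 and the block 34, and 8 held in all leave-out fits. With all 12 libraries 3 of 52 were kept, and within 1 kb 23 of 46. AT2G20450 reversed to 3.25 on the log2 scale at 16 h within 1 kb. The 2.5 h and 16 h groups had the fewest reads, and the part of depth in these counts was not tested.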
